A study of Homo sapiens with 6 samples.

Results

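The 6 SMAD genes that encode the signal-carrying members of the family were examined for SMAD2 binding in Hs578T cells: SMAD2, SMAD3, SMAD4, SMAD1, SMAD5 and SMAD9. For each gene, summits of SMAD2 peaks were collected within 50 kb of its transcription start site (TSS) on hg19, and for SMAD3 also along the rest of its gene body. A summit is the single base of highest signal in a peak. The windows held 32 of the 79310 summits of the 4 peak lists, which formed 11 of 36648 sites (summits up to 250 bp from the next were joined). The windows were set by gene position, without regard to signal, but the genes were chosen with earlier results of these data known.

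Hs578T is an established human triple-negative breast cancer line. Chromatin immunoprecipitation and sequencing (ChIP-seq) with an anti-SMAD2 antibody gave the peaks. Cells of the activin group (2 libraries) were given 50 ng/ml activin A for 1.5 h. Cells of the palbociclib group (2 libraries) were given the same activin A and, for 24 h, 1 µM palbociclib, so activin A was common to all libraries and no ChIP library without it was used. Palbociclib is an inhibitor of the kinases CDK4 and CDK6. The design asks how binding of SMAD2 under activin differs with these kinases inhibited. The 4 peak lists were called against 1 input per treatment, so treatment and input cannot be told apart. The labels do not say whether replicates came from separate cultures, so their spread may be technical. The lists held 25553 and 7241 summits (activin replicates 1 and 2) and 27290 and 19226 (palbociclib replicates 1 and 2), and read numbers were not given in the sources used here. The short list of activin replicate 2 bears on every statement on presence.

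SMAD proteins carry signals of the TGF-β superfamily from the membrane to the nucleus. Receptors for activin and TGF-β phosphorylate SMAD2 and SMAD3, and receptors for bone morphogenetic proteins (BMP) phosphorylate SMAD1, SMAD5 and SMAD9 (also called SMAD8). These receptor-regulated SMADs assemble with SMAD4, the common partner of both branches, and the complexes bind DNA and regulate transcription. SMAD3 and SMAD4 contact DNA directly, at short sequences such as CAGAC and at GC-rich motifs, whereas the main isoform of SMAD2 has an insert in its DNA-binding domain and depends on partners. An antibody against SMAD2 therefore marks DNA that SMAD2 reaches alone or within a complex.

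Promoter sequence is shown for 3 genes that carry the results: SMAD4 and SMAD5, which had the only sites found in all 4 libraries, and SMAD3, whose site at the start had the largest mean rank change of the sites compared in 3 libraries, a size that rested on palbociclib replicate 2. The runs are the 250 bases before the most upstream RefSeq start of each gene (build GRCh38.p14, coding strand, 5′ to 3′). Capitals mark GGCGC or GGCCG on either strand, 2 forms of the GC-rich motif, which can overlap each other. The hg19 summits were placed against the hg19 TSS, and the base that corresponds to each summit in these runs was not determined.
SMAD4: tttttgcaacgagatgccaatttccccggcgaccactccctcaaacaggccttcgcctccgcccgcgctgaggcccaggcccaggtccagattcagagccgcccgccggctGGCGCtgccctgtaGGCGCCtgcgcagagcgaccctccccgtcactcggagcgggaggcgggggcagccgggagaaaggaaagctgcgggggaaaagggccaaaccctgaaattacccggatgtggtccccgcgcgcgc
SMAD5: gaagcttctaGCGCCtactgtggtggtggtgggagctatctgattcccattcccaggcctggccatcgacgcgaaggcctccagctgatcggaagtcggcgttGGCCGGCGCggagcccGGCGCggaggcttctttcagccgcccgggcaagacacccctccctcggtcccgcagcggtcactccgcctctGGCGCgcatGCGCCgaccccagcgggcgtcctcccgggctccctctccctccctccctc
SMAD3: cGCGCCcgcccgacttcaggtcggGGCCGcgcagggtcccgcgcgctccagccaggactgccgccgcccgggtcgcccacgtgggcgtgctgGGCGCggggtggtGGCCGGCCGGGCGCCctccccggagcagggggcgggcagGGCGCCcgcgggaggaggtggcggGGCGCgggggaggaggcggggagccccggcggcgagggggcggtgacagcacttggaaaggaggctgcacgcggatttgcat

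The table of RefSeq promoters listed 2 starts for SMAD2, 5 for SMAD3, 5 for SMAD1 and 1 each for SMAD4, SMAD5 and SMAD9. In the 250 bases before these starts, the GC-rich motifs occurred 3 times for SMAD4, 6 times for SMAD5, 8 times for SMAD9, 11 times at the most upstream SMAD3 start, and 11 and 16 times at the SMAD2 starts. Overlapping matches were counted separately, so that a GGCGCC counts as 2. The median of these motifs over 35116 promoters of the same length was 1, and 57.0% held at least 1. Of all promoters, 65.2% held fewer than SMAD4, 83.8% fewer than SMAD5 and 91.2% fewer than SMAD9. The share was 97.1% for the most upstream SMAD3 start, and 97.1% and 99.7% for the SMAD2 starts. GC content was 68.4% for SMAD4, 70.4% for SMAD5, 78.4% for SMAD9 and 80.8% at the most upstream SMAD3 start, against a median of 58% over all promoters. It was 78.4% and 84.4% at the SMAD2 starts. The other SMAD3 starts lay below that median, at 44.8% to 53.6%, and the SMAD1 starts ran from 41.2% to 78%. A lower GC content was found in 75.6% of all promoters for SMAD4, 80.1% for SMAD5 and 94.8% for SMAD9. The same share was 97.4% for the most upstream SMAD3 start, and 94.8% and 99.4% for the SMAD2 starts. The motif counts were not compared among promoters of similar GC content. The SMAD box CAGAC (searched on both strands, hence also GTCTG) was absent from these 250 bases for SMAD2, SMAD4, SMAD5, SMAD9 and the most upstream start of SMAD3. It occurred in 38.0% of all promoters. The AP-1 motif TGANTCA was likewise absent from these windows, and 6.57% of all promoters held it. At SMAD1 and the other SMAD3 starts the counts differed between starts, from 0 to 11 for the GC-rich motifs. CAGAC occurred 3 times before the fifth SMAD3 start, counted from the most upstream, and 1 time each before the fourth starts of SMAD3 and SMAD1. TGANTCA occurred 1 time each before the third SMAD3 start and the most upstream SMAD1 start. These matches are letters in a window and not measured binding.

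Each of the 6 genes had SMAD2 sites at its promoter and none elsewhere in its window. The farthest of the 32 summits lay 1522 bp from a TSS, upstream of SMAD3, and 12 summits lay within 100 bp of a TSS. No summit fell between 2 kb and the edge of a window. The SMAD3 gene body, 129338 bp from the TSS to the end of the gene, held no summit in any library. As a background, 29.7% of 100 kb windows tiled along the genome held a site, and 14.0% held a site found in all 4 libraries; these tiles were not centred on genes. A site missing from a list means only that no peak there passed the authors' threshold.

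**Figure D1:**
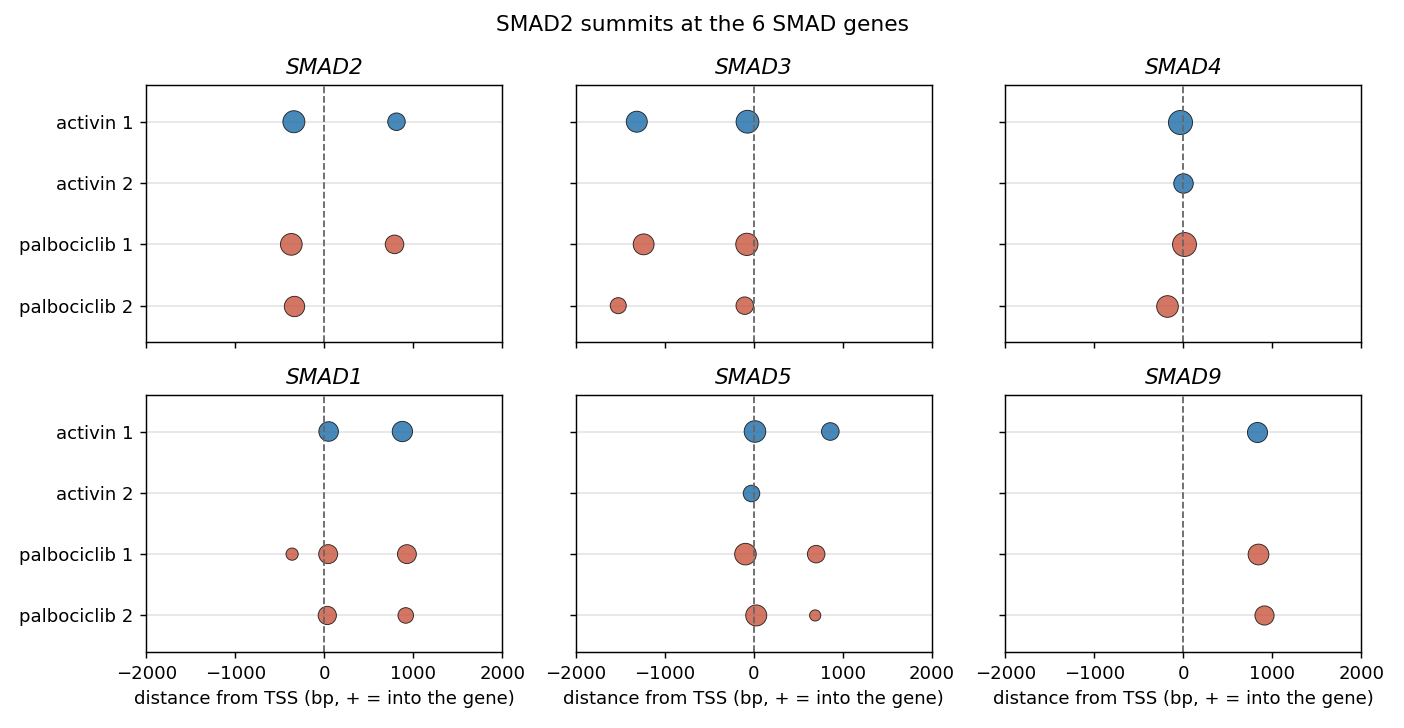
Position of every SMAD2 summit near the TSS of each gene (x axis, bp, positive into the gene; dashed line, TSS), with 1 row per library and larger circles for better ranks within the library. All 32 summits fall within 1522 bp of a TSS, and activin replicate 2 shows circles only at SMAD4 and SMAD5.

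The promoter sites stood alone in their neighbourhoods. From the TSS of SMAD5, which encodes a BMP-branch SMAD, the next site lay 202 kb upstream and 1616 kb downstream. For SMAD2 the distances were 206 kb upstream and 755 kb downstream. For SMAD1, another BMP-branch SMAD, they were 301 kb and 137 kb, and for SMAD3 they were 215 kb and 189 kb. SMAD4 and SMAD9 had closer neighbours, at 60.5 kb upstream of SMAD4 and at 78.9 kb upstream and 71.4 kb downstream of SMAD9. All 6 promoters were thus without another site for 50 kb on either side. Among all 17436 groups of sites lying within 2 kb of each other, 29.0% were so isolated. With a window of 100 kb, 4 of the 6 genes stayed without another site, the exceptions being SMAD4 and SMAD9. The share of all groups isolated over 100 kb was not computed, so this count has no background.

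**Figure D2:**
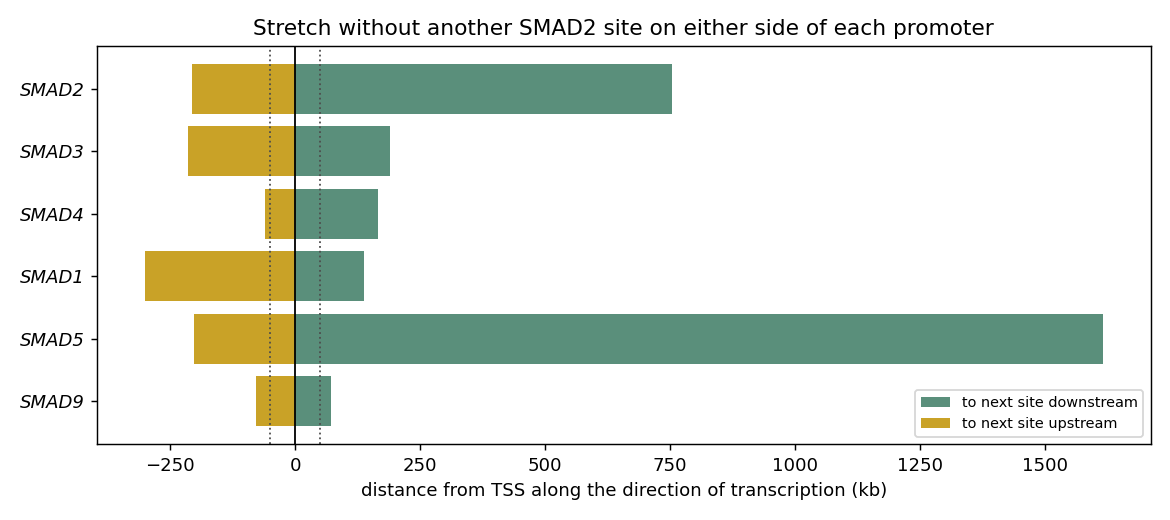
Distance from each TSS (x axis, kb, along the direction of transcription) to the next SMAD2 site beyond the promoter, upstream and downstream, with dotted lines at 50 kb. The bars are shortest for SMAD9 and SMAD4 and longest for SMAD5 downstream.

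SMAD4, the common partner, had the best-ranked site of the 6 genes. Its single site lay on chromosome 18 from 48556400 to 48556586 (hg19), across the TSS at 48556583. The authors' score, on a −log10 scale, was 76.1 and 9.37 for the activin replicates 1 and 2 and 110 and 32.6 for the palbociclib replicates 1 and 2. Scores grow with depth as well as enrichment, so they were compared only within a list. By rank the summit stood at 3046 of 25553 in activin replicate 1, 3337 of 7241 in activin replicate 2, 3624 of 27290 in palbociclib replicate 1 and 5947 of 19226 in palbociclib replicate 2. As percentiles of the full lists (0 is the strongest summit and 100 the weakest) these were 11.9, 46.1, 13.3 and 30.9, each relative to a list of its own length. The summits of 3 libraries lay from 37 bp upstream to 3 bp downstream of the TSS, and that of palbociclib replicate 2 lay 183 bp upstream. The 186 bp between the outermost summits exceeded the median of 46 bp over sites in all 4 libraries, and 8.13% of those were wider. RefSeq lists 1 other start within 1 kb, that of LOC107985152 on the opposite strand.

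SMAD5 held the other site found in all 4 libraries, on chromosome 5 from 135468440 to 135468561, around the TSS at 135468534. The activin replicates 1 and 2 scored it at 32.8 and 6.77, the palbociclib replicates 1 and 2 at 41.8 and 27.4. In the full lists it stood at percentiles 31.4, 64.2, 31.6 and 35.6 in the same order. These percentiles run over lists of different length, so they are compared between libraries only as an alternative setting. The summits ran from 94 bp upstream to 27 bp downstream of the TSS. A weaker site, on the same chromosome from 135469223 to 135469393, lay 689 to 859 bp into the gene. It scored 9.51, 10.2 and 3.94 in activin replicate 1 and palbociclib replicates 1 and 2, and was not listed in activin replicate 2.

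SMAD3, the activin-branch SMAD that binds DNA directly, had a pair of sites that were both listed in 3 libraries and missing in activin replicate 2. The site at the start lay on chromosome 15 from 67358093 to 67358124, 71 to 102 bp upstream of the TSS at 67358195. It scored 49.3 in activin replicate 1, and 55.1 and 10.97 with palbociclib (replicates 1 and 2), at full-list percentiles of 22.1, 26.7 and 58.8. The site farther out lay from 67356673 to 67356958, 1237 to 1522 bp upstream. It scored 26.5, 30.9 and 8.26 in the same libraries. The summits of the outer site were spread over 285 bp, against 31 bp at the start. The outermost summits of the outer site, those of the palbociclib libraries, were joined only through the summit of activin replicate 1.

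SMAD2, the immunoprecipitated factor's own gene, also had a pair of sites. The stronger lay on chromosome 18 from 45457857 to 45457886, 342 to 371 bp upstream of the TSS at 45457515, since SMAD2 is transcribed from the minus strand. Its score was 37.5 in activin replicate 1, against 44.2 and 22.6 with palbociclib (replicates 1 and 2). Its summits agreed within 29 bp, and activin replicate 1 and palbociclib replicate 2 shared the same base. The weaker lay from 45456705 to 45456727, 788 to 810 bp into the gene, and was listed only in the replicate 1 libraries, with scores of 9.36 and 13.5.

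SMAD1, a BMP-branch SMAD, had 3 sites, all of modest rank. One site around the start ran on chromosome 4 from 146402984 to 146402999, 33 to 48 bp into the gene from the TSS at 146402951. Its score was 16.5 in activin replicate 1, and the palbociclib replicates 1 and 2 gave 14.9 and 13.2. Another ran from 146403827 to 146403878, 876 to 927 bp into the gene, with scores of 21.1, 14.8 and 7.60 in that order. The order of the pair changed between libraries: the inner site scored higher in activin replicate 1, the pair was nearly level in palbociclib replicate 1, and the site at the start scored higher in palbociclib replicate 2. The remaining site, 362 bp upstream, was listed only in palbociclib replicate 1, with a score of 4.46 at percentile 85.5.

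SMAD9, the third BMP-branch SMAD, was the gene whose nearest summit lay farthest from its TSS (37494409), at 832 bp. Its single site lay on chromosome 13 from 37493501 to 37493577, 832 to 908 bp into the gene, which is read from the minus strand. Activin replicate 1 scored it at 19.4 and the palbociclib replicates 1 and 2 at 29.0 and 16.5, with full-list percentiles of 42.2, 37.5 and 48.3. Activin replicate 2 did not list it.

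Paired promoter sites were found at 4 of the 6 genes, SMAD2, SMAD3, SMAD1 and SMAD5, while SMAD4 and SMAD9 had 1 site each. Over all groups of sites within 2 kb, 50.5% held 2 or more, so this count is near the background. Between the best pair in a library, the summits were 1152 and 1159 bp apart at SMAD2, 1159 to 1420 bp at SMAD3, 828 to 884 bp at SMAD1 and 662 to 846 bp at SMAD5. The site nearer the TSS had the higher score in every library that listed the pair at SMAD2, SMAD3 and SMAD5, and in 2 of 3 libraries at SMAD1. Nearness and direction refer to a single TSS per gene. Other RefSeq starts of SMAD2, SMAD3 and SMAD1 were not placed on hg19, so a site may lie nearer to one of those. The ratio of the scores was highest at SMAD5 in palbociclib replicate 2 (6.95) and lowest at SMAD1 in palbociclib replicate 1 (1.01).

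The libraries differed in how many of the sites they listed, in the order of their list lengths. Activin replicate 1 listed 10 of the 11 sites, palbociclib replicate 1 listed all 11, palbociclib replicate 2 listed 9 and activin replicate 2 listed 2. Of the 11 sites, 2 were found in all 4 libraries (18.2%), against 15.9% of all sites. Another 7 (63.6%) were missing only in activin replicate 2, against 22.5% of all sites. With a score of at least 20 required, 3 sites had that pattern, and in lists of equal length none did. That cutoff removed every summit of the 6 genes from activin replicate 2, where the scores were 9.37 and 6.77. Of all sites, 39.7% were in 1 library and 20.9% in 2, and these could have neither pattern. Of the 14075 sites in activin replicate 1 and both palbociclib libraries, 8246 lacked activin replicate 2 and 5829 had it. Of the 9 such sites at the 6 genes, 7 lacked it and 2 had it. At none of the 11 sites were both palbociclib libraries present and both activin libraries absent, a pattern of 3.56% of all sites. None had the opposite pattern either, which made up 0.344% of all sites. Without activin replicate 1, 6 sites were in both palbociclib libraries and not in activin replicate 2, so that the count of 0 rested on activin replicate 1. The outer SMAD3 site was not among these 6, since without activin replicate 1 its palbociclib summits were too far apart to be joined.

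Ranks were compared between treatments at the 2 sites found in all 4 libraries, as percentiles among the 5829 such sites. The SMAD4 site stood at 48.8 and 51.9 with activin alone (replicates 1 and 2) and at 56.4 and 81.3 with palbociclib (replicates 1 and 2). Both palbociclib libraries ranked the SMAD4 site below both activin libraries, as they did 28.2% of all sites in 4 libraries; 26.2% went the other way. The group means were 50.4 ± 2.21 and 68.9 ± 17.6 (SD, n = 2 each), a change of 18.5 percentile points towards weaker ranks. The exact permutation test (two-sided) gave p = 0.333, the smallest value that 2 against 2 libraries allow. The change was 6.03 without palbociclib replicate 2 and 30.95 without palbociclib replicate 1, and 11.5 without activin replicate 2. With summits joined over 100 bp the SMAD4 summit of palbociclib replicate 2, 183 bp upstream, formed a site of its own, and no SMAD4 site was found in all 4 libraries. At SMAD5 the percentiles were 93.7 and 70.2 in the activin libraries and 95.1 and 87.5 in the palbociclib libraries, so the groups overlapped. The change of 9.30 points was smaller than the spread of the activin replicates (82.0 ± 16.6 and 91.3 ± 5.41, SD, n = 2 each), with an exact permutation p = 0.667. Without activin replicate 2 the SMAD5 change was -1.12, so its direction rested on that library. Ranked within the full lists, which differ in length, both changes had the opposite sign, at -6.89 for SMAD4 and -14.1 for SMAD5. Activin replicate 2, the shortest list, gave the weakest full-list percentile at both sites. In lists cut to equal length the SMAD4 change was 21.1, the same direction as in the main comparison. SMAD5 had no site in all 4 of those lists.

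Since activin replicate 2 lacked most sites, 9 sites were also ranked among the 14075 sites found in activin replicate 1 and both palbociclib libraries. With 1 activin library there is no replicate check of that group and no test. The site at the SMAD3 start went from percentile 37.8 in activin replicate 1 to 49.2 and 71.4 with palbociclib (replicates 1 and 2). Its mean change of 22.5 points was the largest of the 9 sites, but it was 11.4 without palbociclib replicate 2, less than the 18.6 of the inner SMAD1 site in palbociclib replicate 1. The farther SMAD3 site went from 59.7 to 66.7 and 79.6. SMAD4 went from 20.8 to 24.9 and 39.7. At these 3 sites the palbociclib replicates differed from each other by more than palbociclib replicate 1 differed from activin replicate 1. The inner SMAD1 site went from 66.5 to 85.1 and 82.0, where the palbociclib replicates were close to each other.

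The remaining sites moved less on average. The SMAD2 site went from 48.2 to 56.3 and 51.1, and the inner SMAD5 site from 84.5 to 91.6 and 95.8. The SMAD1 site at the start went from 72.9 to 84.4 and 66.6, and the SMAD5 site at the start from 52.8 to 58.0 and 45.3, so that at both the palbociclib replicates lay on opposite sides of activin replicate 1. The SMAD9 site, at 68.5 in activin replicate 1, ranked slightly better at 68.1 and 60.2. In all, 6 of the 9 sites ranked below activin replicate 1 in both palbociclib libraries, against 38.1% of the 14075 sites, and 1 (SMAD9) ranked above it in both, against 36.9%. With summits joined over 100 bp in place of 250 bp, 6 sites could be compared and 3 of them ranked below in both. Sites of 1 promoter share the chromatin they lie in and are not independent.

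**Figure D3:**
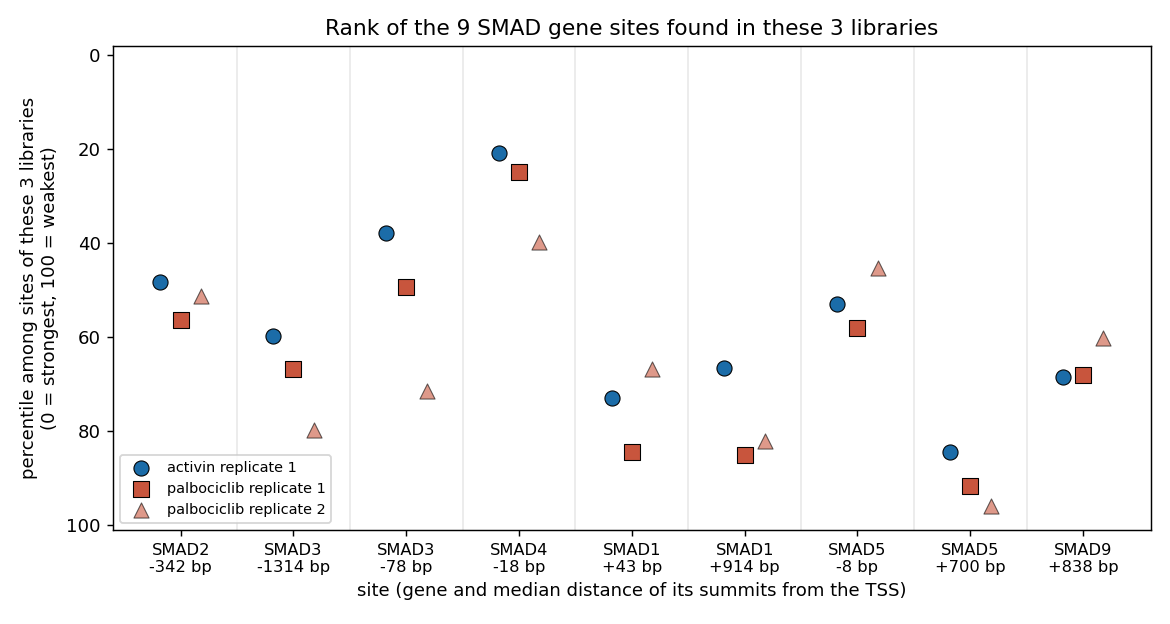
Percentile of the 9 sites (y axis, 0 strongest at the top, among the 14075 sites found in these 3 libraries) in activin replicate 1 and both palbociclib libraries; the x axis gives the gene and the median distance of its summits from the TSS. SMAD4 ranks best in all 3 libraries, at 20.8, 24.9 and 39.7, and the inner SMAD5 site ranks weakest.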

How the data were processed

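The peak lists of 4 SMAD2 ChIP-seq libraries were used; the 2 inputs entered only through the authors' peak calling. The submitters' processing notes name MACS2 2.0.9, Bowtie 1.1.0 and Picard, with hg19 as the build; settings were not given in the sources used here. The deposited lists give 1-base summits and the authors' score on a −log10 scale. The lowest score of a list was 1.31 to 1.4, near −log10 of 0.05 (1.30), and no label says whether p or q. Peaks were called per library against the input of the same treatment.

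TSS positions came from the list of genes, with a single TSS for each, and strands came from RefSeq. Sites were built by joining summits up to 250 bp apart, and a site's score was that of its best summit. Every site in the windows was named. Members and alternatives were chosen with earlier results of these data known. An hg19 annotation was not used here, so exons, introns and other genes of the pathway were not placed. The functions recovered all 200 simulated sites of each of 4 presence patterns. Simulated sites lay far apart, with their summits close together, so wide or paired sites such as those at SMAD3 were not tried. Software was matplotlib 3.10.9, scipy 1.17.1, pandas 2.3.3 and numpy 2.4.6 under Python 3.11.15.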

Additional observations from a re-analysis of the deposited data

How the results depend on the processing

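Depth is unknown, and the list length of activin replicate 2 limits every statement on absence. The 11 sites became 20 with a window of 100 kb, 7 with a score of at least 20 and 3 in equal-length lists. The 2 sites found in all 4 libraries became 1 (SMAD5) with summits joined over 100 bp, 4 with a window of 100 kb, 0 with a score of at least 10 or 20, and 1 in equal-length lists. The 0 was fixed in advance, since both sites scored below 10 in activin replicate 2 (9.37 and 6.77). With a library left out, 2 to 9 sites were found in every remaining library. The 0 palbociclib-only sites became 1 with summits joined over 100 bp and 0 to 6 with a library left out. The 7 sites missing only in activin replicate 2 became 3 with a score of at least 20 and 0 in equal-length lists. With that score the SMAD4 site and the SMAD5 site at the start counted as missing in activin replicate 2. The 6 of 9 sites ranked below activin replicate 1 became 3 of 6 with 100 bp and 8 of 9 within the full lists, which differ in length. The percentile change within the full list was -6.89 at SMAD4 and -14.1 at SMAD5, and in equal-length lists it was 21.1 at SMAD4. With a library left out the SMAD4 change ran from 6.03 to 30.95 and the SMAD5 change ran from -1.12 to 21. For the 3-library change at the best site, the full list gave 2.25 at SMAD5 and 0.767 at SMAD9; with 1 palbociclib library left out it ran from -6.26 to 11.5 at SMAD1 and from -7.48 to 5.21 at SMAD5. SMAD2, SMAD3, SMAD1 and SMAD9 had no site in all 4 libraries, so the 4-library change could not be computed there. The causes of these changes were not tested beyond the smaller or longer lists that the settings make.

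The labels give both groups replicates 1 and 2, without saying that a number marks a shared culture or day. Deviations of the same-numbered libraries correlated at 0.264 over the 5829 sites. With the replicate number as a block, the changes were 18.5 at SMAD4 (7.63 and 29.4 in replicates 1 and 2) and 9.30 at SMAD5 (1.38 and 17.2), each with an exact sign-flip p = 0.5, the smallest that a pair of differences allows.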
